A study of Mus musculus with 6 samples.

Results

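The Hox cluster genes of the fetal mouse testis were profiled on Illumina BeadChip arrays. Members were all probes whose platform gene symbol is Hox, then a, b, c or d, then digits only. This gave 57 probes of 45281 and 38 genes of the 19057 with a symbol on the array.

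The samples were 3 overexpressors and 3 controls, fetuses of embryonic day 14.5 whose strain is given as a mixed B6/CD1 background. The first were Amh-cre;RosaNICD/+, in which the AMH-cre transgene recombines a floxed Rosa26 allele in Sertoli cells, so that these cells make the intracellular domain of NOTCH1, an always-active form of the receptor. The controls were RosaNICD/+ littermates, which carry the same conditional allele without the cre. Each sample was the testis pair of 1 fetus, dissected free of the mesonephros, and each of 3 dams gave 1 fetus of either genotype. Whole testes were used, so the cell type that holds a transcript cannot be told, and fewer cells of a type cannot be told apart from less RNA per cell. Only overexpressors carry Amh-cre, and what the cre does alone and what active NOTCH1 does cannot be told apart.

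Hox genes encode homeodomain transcription factors that give cells their place along the body axis. They lie in the clusters HoxA, HoxB, HoxC and HoxD on mouse chromosomes 6, 11, 15 and 2. Within a cluster the genes are numbered by paralog group from the 3′ end, and genes of low number are used further towards the head than genes of high number. In the urogenital ridge, which gives rise to gonad, mesonephros and ducts, Hox genes pattern the ducts and the descent of the testis.

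Between 42.97 and 44.80% of all probes on an array were above background, meaning that the detection p-value against the negative controls of that array was under 0.05. Each Hox probe was read from 17 to 73 beads per array, and the median standard error of the bead signal was 4.14 to 4.51% of the signal. The testis markers were in place on every array: Sertoli (Amh, Sox9, Dhh, Cst9), fetal Leydig (Insl3, Cyp17a1, Cyp11a1, Star, Hsd3b1) and germ cell genes (Ddx4, Dazl, Dppa3, Pou5f1, Dnd1) all passed this threshold on every array.

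Of the 38 Hox genes, 16 had a probe above background on all 6 arrays, 8 on some arrays and 14 on none. Among all named genes on the array 50.4% met the first of these rules. At the probe level 19 of 57 Hox probes were above background on all 6 arrays, against 36.6% of all probes, and 26 were so on 0 arrays. The array with the most Hox probes above background had 25 and the array with the fewest had 22. Probes differ in how well they bind, so their brightness is not compared between genes and only the call against background is used to say which positions are on.

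**Figure D1:**
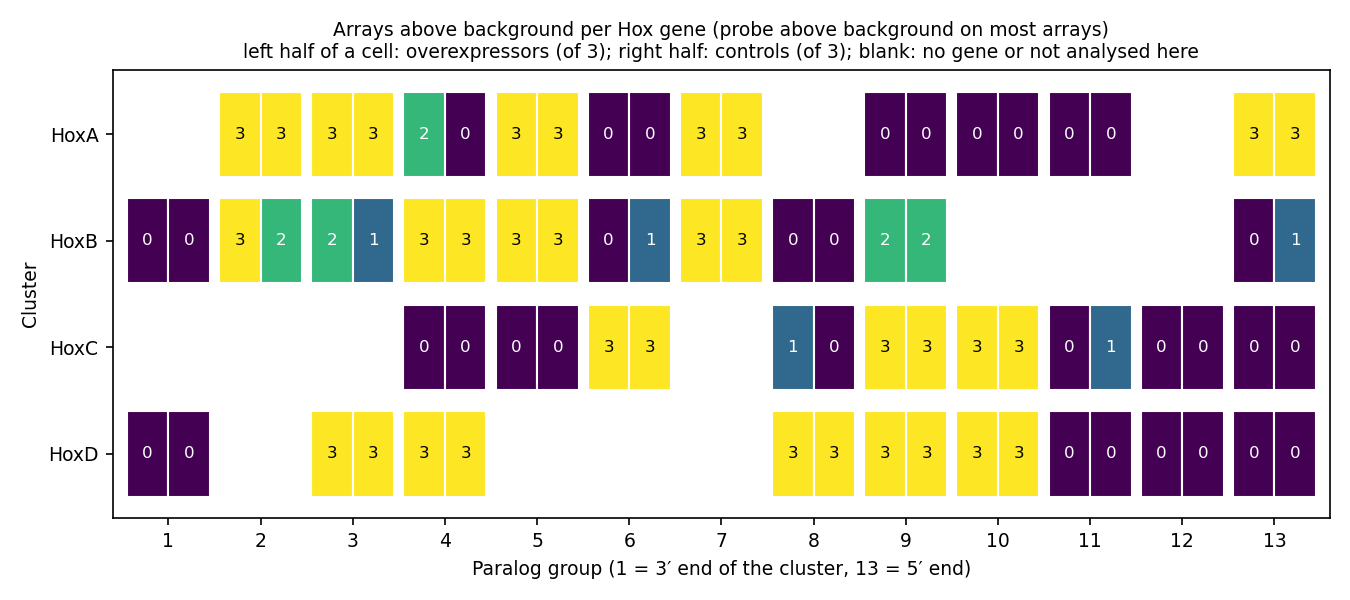
Number of arrays above background for each Hox gene, by cluster (rows) and paralog group (columns), with overexpressors in the left and controls in the right part of each cell (3 arrays each); blank positions have no gene or were not analysed here. HoxD is on at groups 3, 4, 8, 9 and 10 in both genotypes and at 0 arrays in groups 11 to 13.

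The HoxD cluster was on in 1 unbroken run of genes. Its genes Hoxd3, Hoxd4, Hoxd8, Hoxd9 and Hoxd10 are neighbours along chromosome 2, and all 5 were above background on every array, each with a detection p of 0. Hoxd1 at one end and Hoxd11, Hoxd12 and Hoxd13 at the other were above background on 0 of 6 arrays. The lowest detection p on any array was 0.0759 for Hoxd1, 0.0887 for Hoxd11, 0.0641 for Hoxd12 and 0.304 for Hoxd13. No HoxD gene was above background on only some arrays.

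The step between Hoxd10 and Hoxd11 is where this run of genes ended. It is a step in the calls against background, since brightness is not compared between genes. Hoxd10, which in mouse helps to pattern lumbar motor neurons and the limb, had raw signals of 2404, 1734 and 1780 in overexpressors 1 to 3, against 2058, 1819 and 1782 in controls 1 to 3. The brighter of the 2 Hoxd11 probes had raw signals of 123.7, 110.6 and 106.3 in overexpressors, against 112.4, 108.1 and 97.4 in controls. The detection p of this probe ran from 0.0887 to 0.297 over the 6 arrays. The gene table places the Hoxd10 and Hoxd11 loci over each other in part, and where the probes lie on their transcripts is not known here.

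Promoter sequences bear on this step only as a description, since binding was not measured. RefSeq start sites of GRCm38.p6 gave 24 windows for 22 of the 38 Hox genes, each from 250 bases before to 50 bases after a start, and all 9 HoxD genes had at least 1. The 4 motifs searched on both strands were the RBPJ word TGGGAA, used by the NOTCH effector RBPJ, the PBX-HOX word TGATTNAT, the retinoic acid receptor half-site AGGTCA, and the TATA box TATAAA. No 2 of these matches overlapped in the sequences printed. They occurred in 25.6%, 3.22%, 16.3% and 13.6% of all 32851 promoter windows. The 250 bases before the start are given for Hoxd3 and Hoxd10, which were on, and for both starts of Hoxd11, which was not, with motif matches in capitals:
Hoxd3, chr2:74711743-74711992, + strand: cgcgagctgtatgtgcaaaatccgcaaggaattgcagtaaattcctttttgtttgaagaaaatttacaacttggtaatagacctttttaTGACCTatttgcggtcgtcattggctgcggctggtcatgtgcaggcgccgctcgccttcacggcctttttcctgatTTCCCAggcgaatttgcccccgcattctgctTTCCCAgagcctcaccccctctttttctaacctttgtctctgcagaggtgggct
Hoxd10, chr2:74691641-74691890, + strand: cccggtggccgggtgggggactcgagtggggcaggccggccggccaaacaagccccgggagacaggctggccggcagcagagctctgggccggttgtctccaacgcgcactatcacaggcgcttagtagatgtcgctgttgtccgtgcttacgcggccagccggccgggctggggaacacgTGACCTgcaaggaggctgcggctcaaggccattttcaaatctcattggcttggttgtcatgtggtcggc
Hoxd11, first start, chr2:74679308-74679557, + strand: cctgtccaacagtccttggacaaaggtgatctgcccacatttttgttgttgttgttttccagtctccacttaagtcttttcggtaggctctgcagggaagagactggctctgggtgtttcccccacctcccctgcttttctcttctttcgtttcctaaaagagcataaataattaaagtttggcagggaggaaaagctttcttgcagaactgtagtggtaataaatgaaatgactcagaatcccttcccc
Hoxd11, second start, chr2:74682073-74682322, + strand: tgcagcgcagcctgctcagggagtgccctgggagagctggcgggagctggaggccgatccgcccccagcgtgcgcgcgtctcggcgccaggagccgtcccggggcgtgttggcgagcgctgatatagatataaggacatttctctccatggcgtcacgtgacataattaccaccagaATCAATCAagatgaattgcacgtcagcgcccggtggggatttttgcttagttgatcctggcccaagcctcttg

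Read on the opposite strand, the capitals in Hoxd3 are 1 retinoic acid receptor half-site (TGACCT) and 2 RBPJ words (TTCCCA), the one in Hoxd10 is a half-site, and the one in Hoxd11 is a PBX-HOX word. In HoxD the half-site was in 4 of 5 windows of genes that were on (Hoxd3, Hoxd4, Hoxd8 and Hoxd10) and in 0 of 5 windows of genes that were not. Over all windows it was in 6 of 11 of genes that were on in all arrays and in 1 of 13, that of Hoxc4, of genes above background on none. Hoxd9 was on without the half-site in its window. Like the half-site, the other words were found in windows of both kinds: RBPJ in 3 and 2, PBX-HOX in 1 and 1, and the TATA box in 1 and 3. These counts cover only part of the clusters. Hoxb5, Hoxb7, Hoxc6, Hoxc9 and Hoxc10 were on but had no window, and no gene above background on only some arrays had one. HoxC is thus read from Hoxc4 alone, and Hoxa10 and Hoxd11 each count with more than 1 window. A word of this length is frequent in the genome, and a match is not shown to be a bound site.

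HoxC was on in 3 of its 9 genes. These were Hoxc6, Hoxc9 and Hoxc10, each with a probe whose detection p was 0 on every array. The second Hoxc10 probe was also above background on every array, with a highest detection p of 0.00214. In mouse, Hoxc6, Hoxc9 and Hoxc10 sort motor neurons into their brachial, thoracic and lumbar columns. Hoxc8 lies between Hoxc6 and Hoxc9 and was above background on 1 of 6 arrays, with a detection p of 0.0427 on that overexpressor array. Hoxc4, Hoxc5, Hoxc12 and Hoxc13 were so on 0 arrays, and Hoxc11 on 1 control array with 1 of its 2 probes. As in HoxD, the genes of group 10 were on and those of groups 11 to 13 were not on in all arrays.

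HoxB was on in a central stretch, with gaps and with more genes near the limit of detection. Hoxb4, known for expanding blood stem cells, Hoxb5 and Hoxb7 were above background on all 6 arrays, and both Hoxb7 probes were. Hoxb2, which acts in the hindbrain, was above background on 3 overexpressor and 2 control arrays, Hoxb9 on 2 and 2, and the best of 4 Hoxb3 probes on 2 and 1. Hoxb6 and Hoxb13, a gene of the prostate and tail, were so on 0 overexpressor and 1 control array. Hoxb1, which specifies a hindbrain segment, and Hoxb8 were above background on 0 arrays.

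HoxA was split. Hoxa2, which sets the identity of the second pharyngeal arch, Hoxa3, needed for the thymus and parathyroid, Hoxa5, needed for the airways, and Hoxa7 were on in all 6 arrays. Hoxa6, Hoxa9, Hoxa10 and Hoxa11 were above background on 0 arrays with 7 probes in all. Hoxa10 and Hoxa11 are the Hox genes best known for the male tract, because mice without either have undescended testes. The lowest detection p over both Hoxa10 probes was 0.118, and that of the Hoxa11 probe was 0.536. At the 5′ end Hoxa13, a gene of the digits, hindgut and genital tubercle, was above background on all 6 arrays with 1 of its 3 probes, on 5 arrays with another and on 0 with the last.

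Probes of a gene did not always give the same call. Of 13 Hox genes with more than 1 probe, 3 (Hoxa2, Hoxa3 and Hoxa13) had some probes above background on all 6 arrays and others not. The Hoxa3 call rests on 1 of 4 probes, one annotated to a cDNA clone, and its highest detection p of 0.031 is the weakest among the genes on in all arrays. Hoxb2, with a highest detection p of 0.062 on 1 control array, is the gene just outside the rule. In the gene table the locus of Hoxa3 overlaps those of Hoxa4, Hoxa5 and Hoxa6. Hoxb3 overlaps Hoxb4, Hoxd3 overlaps Hoxd4, and Hoxd10 overlaps Hoxd11. Whether a probe for one of these genes reads more than 1 transcript cannot be told, since where the probes lie is not known here.

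By position, 3 of 7 genes of groups 1 to 3 were on in all arrays, 8 of 15 of groups 4 to 8, and 5 of 16 of groups 9 to 13. Of the 9 genes in groups 11 to 13, 1 was on, Hoxa13. Of the 14 probes for these 9 genes, 10 were above background on 0 arrays. Paralogs of group 10 differed, with Hoxc10 and Hoxd10 on and Hoxa10 not, and in group 4 Hoxb4 and Hoxd4 were on while Hoxc4 was not.

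The comparison of overexpressors with controls asks whether active NOTCH1 in Sertoli cells moved any Hox transcript. Of the 23 Hox probes tested, from 19 genes, 0 passed an adjusted p of 0.05 in limma, against 0.568% of all 19889 probes tested (0.407% higher and 0.161% lower in overexpressors). In this fit, which leaves the dam out, 1 Hox probe had an unadjusted p under 0.05, that of Hoxb2, against 9.5% of all probes. With the dam as a block 0 Hox probes passed the adjusted threshold, with a lowest adjusted p of 0.263, against 0.789% of all probes called. The unadjusted p with the block was 0.0224 for Hoxb2, 0.0378 for the dimmer Hoxc10 probe, 0.041 for Hoxd4 and 0.0435 for Hoxb4 (limma). It was above 0.05 for the other tested Hox probes, and the share of all probes under 0.05 with the block was not counted. A probe was tested when it was above background on at least 3 of 6 arrays, so 16 of the 19 genes were on in all arrays and the other 3 were Hoxb2, Hoxb3 and Hoxb9. The log2 fold changes, overexpressor over control, ran from -0.28 for Hoxc10 to 0.67 for Hoxb4, with a median of 0.08 over the 19 genes and of -0.003 over all probes tested. Standard errors and intervals are from the fit without the dam and leave the pairing out. The 95% intervals of the 19 genes together span -0.61 to 1.40. Before adjustment that of Hoxb2 was the 1 that did not hold 0.

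Hoxd10 had groups that lay close together. Its normalized log2 intensity was 10.92, 10.69 and 10.85 in overexpressors 1 to 3, against 10.84, 10.81 and 10.95 in controls 1 to 3. The groups overlap, and the overexpressor was higher in 1 of 3 dams. The log2 fold change was -0.05 ± 0.13 (SE, n = 3 per group; adjusted p = 0.947, limma), with a 95% interval from -0.34 to 0.25, and it was 0.02 with median scaling.

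Among anterior genes Hoxb2 stood at 5.54, 5.37 and 5.64 in overexpressors and at 5.39, 4.89 and 5.09 in controls. All 3 dams had the higher value in the overexpressor, and the groups overlap only by overexpressor 2 and control 1. The log2 fold change was 0.39 ± 0.16 (SE; adjusted p = 0.504, limma), against 0.13 with no background correction and 0.08 in the authors' processed table. Hoxa3 stood at 5.39, 5.64 and 5.24 in overexpressors and at 5.20, 5.08 and 5.11 in controls. Its groups do not overlap, as was the case for 2 of 23 Hox probes and 14.6% of all probes. The log2 fold change of Hoxa3 was 0.29 ± 0.14 (SE; adjusted p = 0.59, limma), against 0.09 with no background correction, 0.06 in the authors' processed table and 0.18 without overexpressor 2. Hoxa2 went the other way, at 5.34, 5.29 and 5.55 in overexpressors and 5.69, 5.52 and 5.69 in controls. It was lower in all 3 dams, though overexpressor 3 was above control 2, with a log2 fold change of -0.24 ± 0.14 (SE; adjusted p = 0.646, limma). That of Hoxa2 was -0.08 with no background correction and -0.10 in the authors' processed table.

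**Figure D2:**
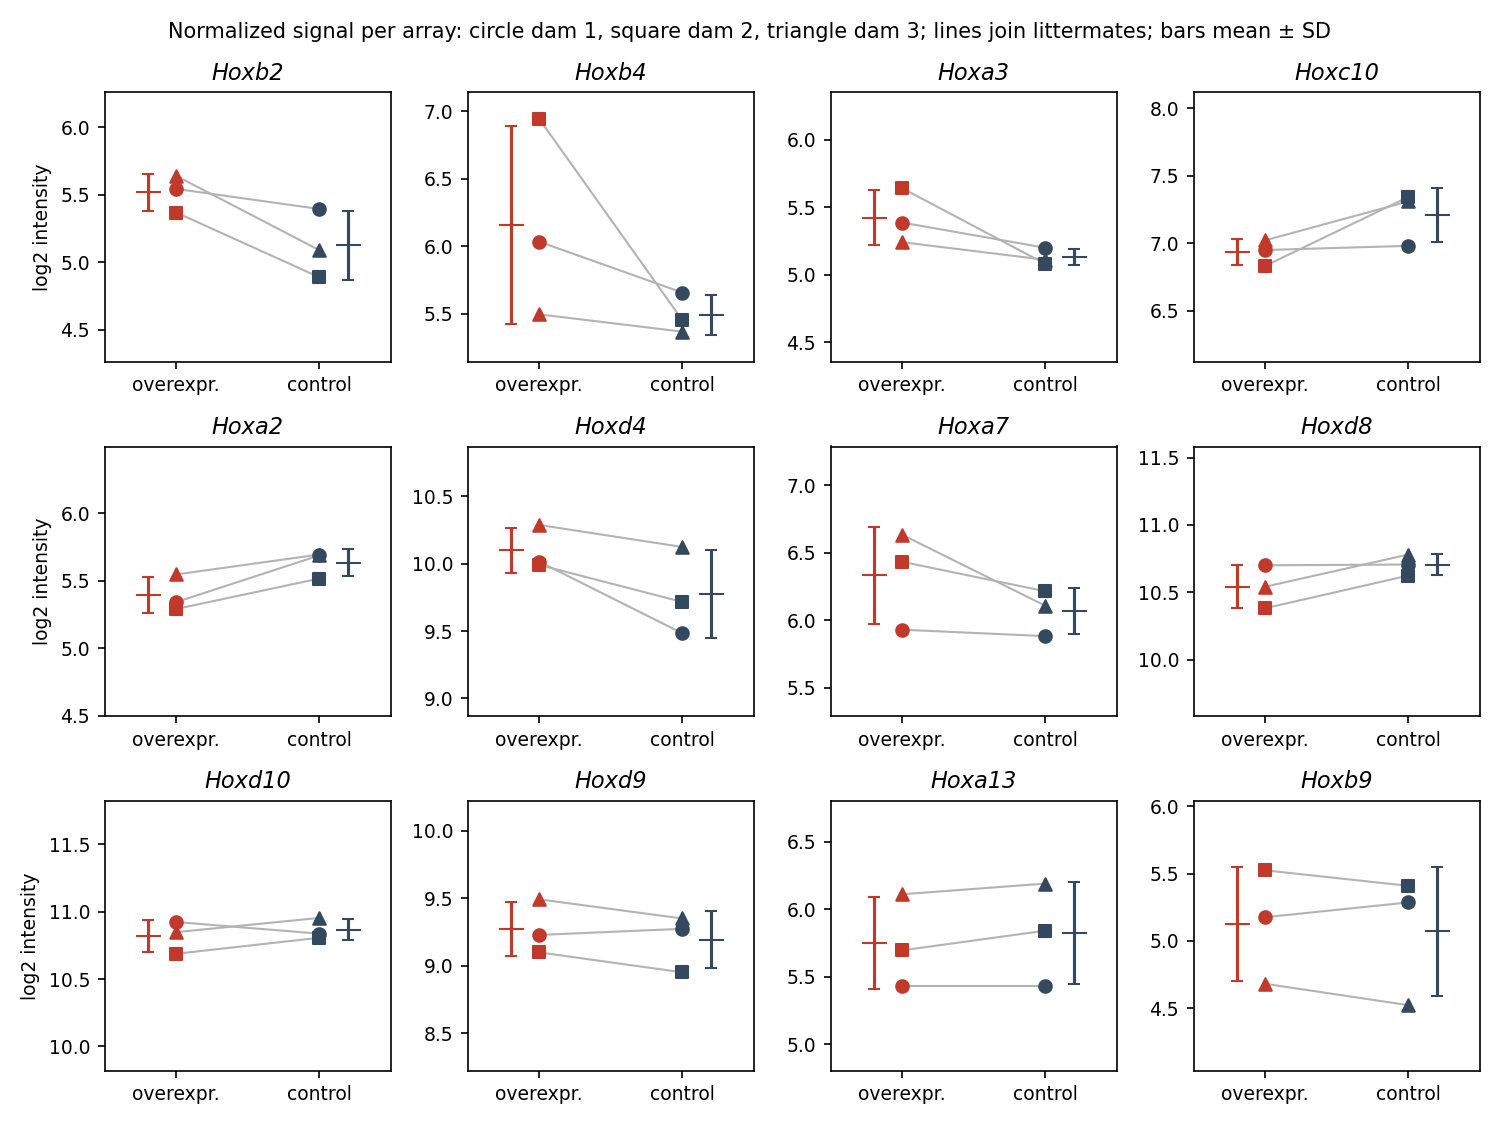
Normalized log2 intensity on each array (y axis, each panel spanning 2 log2 units) in overexpressors (left, red) and controls (right, blue) for the 8 Hox genes with the smallest unadjusted p, for Hoxd10, and for Hoxd9, Hoxa13 and Hoxb9; symbols mark the dam, grey lines join littermates and bars are mean ± SD (n = 3). Overexpressor 2 stands apart for Hoxb4 at 6.94, and littermates lie close together for Hoxa13 and Hoxb9.

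In the central groups Hoxb4 had the highest estimate, and it depended on overexpressor 2. It stood at 6.03, 6.94 and 5.49 in overexpressors and at 5.66, 5.45 and 5.37 in controls. All 3 dams had the higher value in the overexpressor, by 0.38, 1.49 and 0.13, and the groups overlap. The log2 fold change was 0.67 ± 0.32 (SE; adjusted p = 0.579, limma). Without overexpressor 2 it was 0.27, without overexpressor 3 it was 1.00, with no background correction 0.29, and it was 0.25 in the authors' processed table. Hoxd4, which shapes the neck vertebrae, stood at 10.01, 9.99 and 10.29 in overexpressors and at 9.48, 9.72 and 10.12 in controls. It was higher in all 3 dams by 0.53, 0.27 and 0.16, and its groups overlap through control 3. The log2 fold change of Hoxd4 was 0.32 ± 0.19 (SE; adjusted p = 0.653, limma), against 0.18 without control 1 and 0.50 without control 3. Hoxa7 stood at 5.93, 6.43 and 6.63 in overexpressors and 5.88, 6.21 and 6.11 in controls (0.26 ± 0.20, SE; adjusted p = 0.745, limma). Hoxa7 was higher in the overexpressor of all 3 dams, with groups that overlap. Its log2 fold change was 0.46 without overexpressor 1, 0.11 without overexpressor 3, 0.17 without control 1, 0.13 with no background correction and 0.09 in the authors' processed table. Hoxd8, a gene of the trunk and limb, stood at 10.70, 10.38 and 10.54 in overexpressors and 10.71, 10.62 and 10.78 in controls (-0.16 ± 0.14, SE; adjusted p = 0.784, limma). It was lower in all 3 dams, and the groups overlap. The log2 fold change of Hoxd8 was -0.24 without overexpressor 1, -0.08 without overexpressor 2 and -0.10 with median scaling.

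Of the posterior genes Hoxc10 was the one furthest from 0. Its brighter probe stood at 6.95, 6.83 and 7.02 in overexpressors and at 6.98, 7.34 and 7.31 in controls. The second Hoxc10 probe stood at 5.53, 5.76 and 5.80 in overexpressors and at 5.82, 6.27 and 5.97 in controls, and these groups do not overlap. Both probes were lower in all 3 dams, with log2 fold changes of -0.28 ± 0.15 and -0.32 ± 0.16 (SE; adjusted p = 0.624 and 0.593, limma). The brighter probe stood at -0.17 with no background correction and in the authors' processed table. Both probes read the same RNA samples and are not separate support.

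The other 10 tested genes lay between -0.13 for Hoxd3 and 0.19 for Hoxb3, with adjusted p-values in limma from 0.806 to 0.998. Hoxa5 stood at 0.18 ± 0.17 (SE), Hoxb5 at 0.12 ± 0.15, Hoxb7 at 0.09 ± 0.21, Hoxd9 at 0.08 ± 0.17, Hoxb9 at 0.05 ± 0.28 and Hoxc9 at 0.004 ± 0.22. Hoxc6 stood at -0.06 ± 0.13 and Hoxa13 at -0.07 ± 0.23. For Hoxb3 and Hoxc9 the dams were opposed: Hoxb3 was higher in the overexpressor by 0.60 and 0.59 in dams 1 and 3 and differed by -0.62 in dam 2, and Hoxc9 differed by 0.34, -0.70 and 0.37 in dams 1 to 3.

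**Figure D3:**
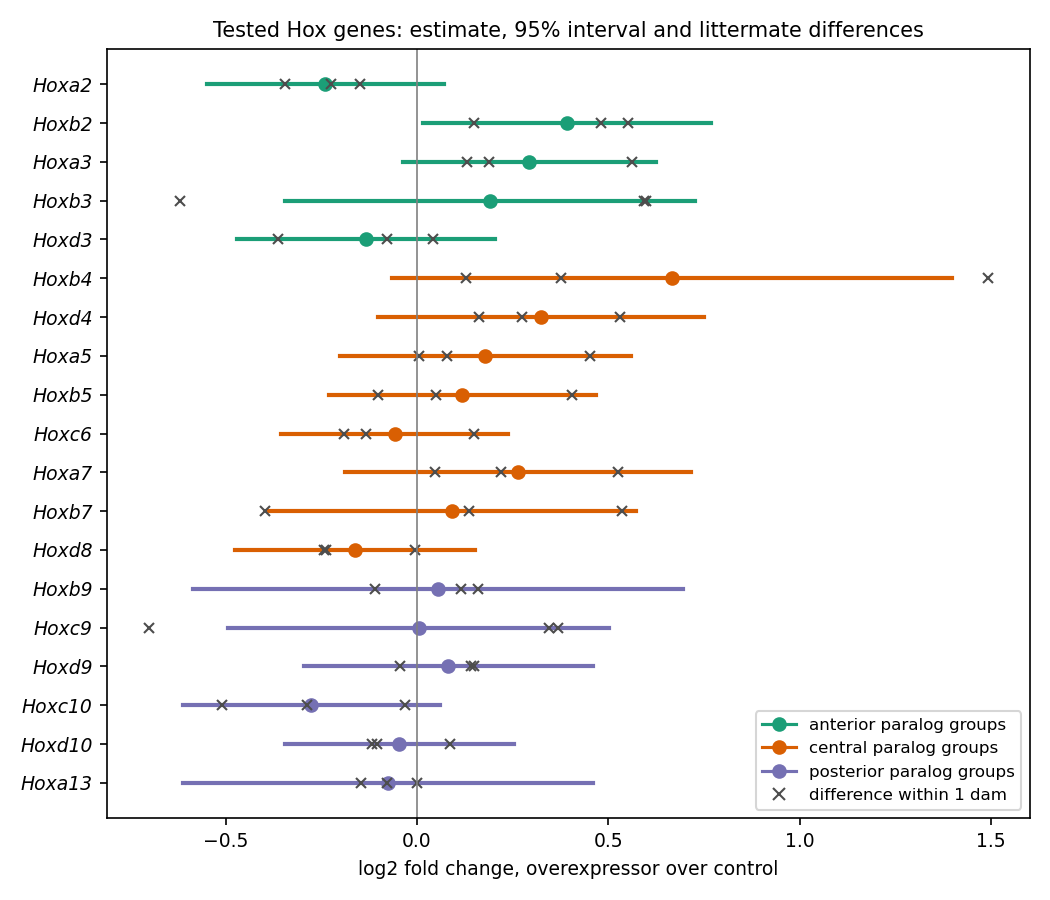
Log2 fold change (x axis, overexpressor over control) of the 19 tested Hox genes, ordered from low (top) to high (bottom) paralog group and coloured by groups 1 to 3 (anterior), 4 to 8 (central) and 9 to 13 (posterior); lines are 95% intervals and crosses the differences within each dam. Intervals are from the fit without the dam as a block, where that of Hoxb2 is the one above 0 before adjustment. The 6 posterior genes lie between -0.28 and 0.08.

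Grouped by position, 3 of 5 anterior, 6 of 8 central and 3 of 6 posterior genes had higher estimates in overexpressors. The median log2 fold change was 0.19 in anterior, 0.15 in central and -0.02 in posterior genes. By cluster the median was 0.18 in HoxA (5 genes), 0.15 in HoxB (6 genes, all with estimates above 0, though those of Hoxb5, Hoxb7 and Hoxb9 turned below 0 under at least 1 alternative), -0.06 in HoxC (3 genes) and -0.05 in HoxD (5 genes). None of these genes passed. Counting a tie as lower, 12 of 23 Hox probes had 1 direction in all 3 dams, against 37.8% of all probes by the same rule. The 12 include the brightest Hoxa13 probe, whose littermates were tied in dam 1. A difference between positions or clusters was not tested.

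Hoxa4 was the 1 Hox gene above background on more than 1 array of one genotype and none of the other. It stood at 4.72, 5.42 and 5.19 in overexpressors and at 4.65, 4.60 and 4.69 in controls, above background in overexpressors 2 and 3. The mean of the 3 overexpressors was 1.11-fold a bound for controls, taken per array as the higher of its own signal and the dimmest detected probe. That mean includes overexpressor 1, which was not above background, so the ratio is not a strict lower limit. Hoxa4 was named for this pattern, and the share of all probes with the pattern was not counted. With no filter on dim probes its log2 fold change was 0.46 ± 0.17 (SE; adjusted p = 0.612, limma).

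For some genes the dams differed more than the littermates did. In 3 of 19 genes the SD of the dam means was larger than the mean size of the littermate difference: Hoxa13, Hoxb9 and Hoxd9, named after their values were seen. The 2 measures are not alike, and the count depends on the choice. By the range of the dam means instead, most of the 19 genes met the rule. They were those 3 and Hoxa5 (0.34 against 0.18), Hoxa7, Hoxb4, Hoxb5, Hoxb7, Hoxd3, Hoxd4 (0.46 against 0.32), Hoxd8 and Hoxd10. The range was not larger for Hoxa2, Hoxa3, Hoxb2, Hoxb3, Hoxc6 (0.08 against 0.16), Hoxc9 and Hoxc10. The share over all probes was not counted. Hoxa13 stood at 5.43, 5.69 and 6.11 in overexpressors 1 to 3 and at 5.43, 5.84 and 6.19 in controls 1 to 3. Littermates differed by 0.07 on average and dam means by up to 0.72. The second tested Hoxa13 probe did not rank the dams in this way, at 5.14, 4.88 and 5.22 in overexpressors and 5.39, 5.07 and 5.30 in controls. Hoxb9 was lowest in dam 3 in both genotypes, at 5.18, 5.52 and 4.68 in overexpressors and 5.29, 5.41 and 4.52 in controls. Both Hoxd9 probes were highest in dam 3 in both genotypes, and the brighter one stood at 9.23, 9.10 and 9.49 in overexpressors and 9.27, 8.95 and 9.35 in controls. A term for the dam was not tested for single genes.

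Hox proteins bind DNA together with TALE homeodomain proteins of the MEIS, PBX and PKNOX families. Of 11 listed TALE genes 9 were tested and 0 passed, 5 with estimates above 0 and 4 below, and their median was 0.02 on the log2 scale. By the probe that stands for each gene, the smallest unadjusted p belonged to Meis3 (0.18 ± 0.15, SE) and Pknox1 (0.20 ± 0.17). The brightest probes of Meis1 (0.03 ± 0.14) and Meis2 (0.02 ± 0.13) were near 0, while a dimmer probe of Meis1 stood at 0.42 ± 0.17, one of Meis2 at 0.47 ± 0.17, and a dimmer probe of Tgif1 at -0.41 ± 0.15 beside -0.07 ± 0.18 for its brightest. None of these dimmer probes passed (adjusted p = 0.488, 0.438 and 0.422, limma).

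Chromatin factors that keep Hox genes silent or active were likewise not called. Of 14 tested Polycomb genes, which hold Hox clusters repressed, 0 passed, with 8 estimates above 0 and a median of 0.04. Phc1 (-0.34 ± 0.14, SE) and Rnf2 (0.42 ± 0.18) had the smallest unadjusted p. Of 10 tested Trithorax and MLL complex genes, which keep them active, 0 passed, with 4 estimates above 0 and a median of -0.07. The smallest unadjusted p belonged to Kdm6b (0.36 ± 0.23), which encodes a demethylase of the Polycomb mark, and Psip1 (-0.17 ± 0.12).

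Upstream of the clusters, 5 of 9 listed activators were tested and 0 passed, with a median of 0.07. The retinoic acid receptor gene Rarb stood at 0.65 ± 0.19 (SE; adjusted p = 0.306, limma) and Rarg at -0.15 ± 0.14. The caudal genes Cdx2 and Cdx4, which switch on posterior Hox genes in the early embryo, and the receptor gene Rara were above background on 0 arrays.

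Genes next to the clusters gave no call either. Of 8 tested flanking genes 0 passed, with 3 estimates above 0 and a median of -0.003. Evx1, the homeobox gene beyond Hoxa13, was above background on 1 overexpressor and 3 control arrays, with a log2 fold change of -0.46 ± 0.16 (SE; adjusted p = 0.405, limma), and Hibadh stood at -0.26 ± 0.15. Evx2, the corresponding gene beyond Hoxd13, was above background on 0 arrays, as were the noncoding RNA genes Hottip and Hoxd3os1, the 2 of 13 listed with a probe.

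Tissue of the mesonephros uses Hox genes as well, so its markers are given beside these results. Of 11 listed mesonephros and duct markers with a probe, 5 had one above background on all 6 arrays, and Emx2, Gata3 and Wnt9b were so on 0. Pax2 was above background on 1 overexpressor array with 1 probe and on 0 arrays with the other. Of the 7 tested, all had lower estimates in overexpressors, 1 passed (Ret, -1.90 ± 0.29, SE; adjusted p = 0.0342, limma), and the median was -0.43. The summed normalized intensity of these 7 was 645 to 815 in overexpressors and 1263 to 1420 in controls, without overlap. Bright probes weigh most in such a sum, and the amount of mesonephric tissue was not tested. The members were uneven: beside Ret, Lhx1 stood at -1.38 ± 0.31, Cdh1 at -0.93 ± 0.17 and Krt8 at -0.43 ± 0.19, while Cdh16 (-0.02 ± 0.29), Pax8 (-0.03 ± 0.28) and Krt18 (-0.05 ± 0.22) were near 0. Fetal germ cells also make Cdh1, the gene of E-cadherin. Which cells, of testis or duct, made the other listed genes was not tested, so the sum is not a measure of duct tissue. Sertoli markers summed to 20146 to 23570 in overexpressors and 14073 to 17230 in controls, a sum in which bright probes weigh most. Cst9 rose (0.83 ± 0.13, SE; adjusted p = 0.0358, limma), while Amh (-1.24 ± 0.38), Dhh (-0.31 ± 0.21) and Sox9 (0.15 ± 0.18) did not pass, and the median of the 4 was -0.08. The 5 germ cell markers all had lower estimates, 0 passed, and their sums overlapped, at 5048 to 8559 in overexpressors and 7351 to 11716 in controls. With the dam as a block Dnd1, a germ cell survival gene, passed (-1.06, adjusted p = 0.0445, limma). The part of these cells in the Hox signals was not tested.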

How the data were processed

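Gene expression was measured in 6 testis pairs, 3 per genotype, with 1 array each. The signals were made with GenomeStudio 2010.3, per the submitters' processing notes. Per the file headers, the deposited table holds for each probe a mean bead intensity on a linear scale, not normalized, the number of beads, the standard error of the bead intensity, and a detection p-value against the negative controls. The authors' processed table holds intensity values equal to the raw signals times 1 factor per array, from 0.855 to 1.15, with column medians of 105 to 118. It is linear, and neither centred nor turned. The genome build and the test used by the authors are not given in the sources used here.

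Signals were background-corrected from the detection p-values, quantile-normalized and log2-transformed by the neqc function (offset 16) of limma 3.58.1 under R 4.3.3. Probes with a detection p under 0.05 on at least 3 arrays were tested with limma's two-sided moderated test, adjusted by Benjamini-Hochberg over all 19889 probes. A gene with several tested probes is represented by its brightest on average. The script was tested on simulated data. Symbols came from the platform annotation (34885 probes with 1 symbol, 18 with several, 10378 with none) and, through Entrez identifiers, from the GRCm38.p6 table (34807 matched).

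All 38 Hox genes are accounted for. Per-array values are given for Hoxd10 and the 8 Hox genes with the smallest unadjusted p, and other genes given so are said to be chosen after their values were seen or stand in for a bound. Members, lists and tests were chosen with earlier results of these data known. Labels number samples by dam, and littermates deviated from their group means together (correlation over probes 0.252, 0.426 and 0.304), so the numbers pair the samples. The alternatives were the dam as a block, no background correction, median scaling, the authors' table, no or a stricter filter, a trended prior variance and each array left out. The number of arrays limits the precision.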

Additional observations from a re-analysis of the deposited data

How the results depend on the processing

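Under all 13 alternatives to the limma fit, 0 Hox probes passed, with a lowest adjusted p over the Hox probes from 0.263 with the dam as a replicate block to 0.736 without control 2. The count of all changed probes was 113, and 157 with the dam as a replicate block, with 96 called in both. It was 67 with no filter on dim probes and 202 with a trended prior variance, and ran from 28 (without overexpressor 1) to 90 (without overexpressor 3) with 1 array left out. The number of Hox genes on in all arrays was 16, and 15 at a detection p under 0.01 (without Hoxa3), 19 on at least 3 arrays, and 16 to 17 with 1 array left out. The genes that turned sign under some alternative all had estimates near 0, and none was called in any setting. With median scaling Hoxc6 stood at 0.00168 and Hoxd10 at 0.0182. In the authors' processed table Hoxb9 stood at -0.00692 and Hoxc9 at -0.00849. With 1 array left out, Hoxa13 ran from -0.265 to 0.111, Hoxb5 from -0.0158 to 0.225, Hoxb7 from -0.112 to 0.321, Hoxb9 from -0.225 to 0.282, Hoxc9 from -0.133 to 0.24, Hoxd9 from -0.0393 to 0.168 and Hoxd10 from -0.0985 to 0.0211. Without control 3 and without overexpressor 1 Hoxa13 was above 0, and without overexpressor 2 Hoxd10 was. The cause of these turns was not tested. The BeadChip as a block was not run, because the files used here do not name it. Dim probes limit what can be seen: a Hox gene not above background may still be expressed below that limit.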
